A study of Mus musculus with 24 samples.

Results

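Cxcl9 (ENSMUSG00000029417) and Cxcl10 (ENSMUSG00000034855), the interferon-induced chemokines, were followed as a pair through 24 poly(A) RNA-seq libraries from mice with ligature-induced periodontitis. They are 2 of the 38321 gene IDs in the count tables and were chosen by name after their counts in these libraries had been seen. Their levels and changes are therefore given as a description, without a test. The female C57BL/6J wild-type mice were 11 weeks old at the start and had surgery on day 0, a silk suture tied around upper molars on both sides on day 7 and tissue collection on day 14. Groups were sham surgery with vehicle (Sham), removal of both ovaries with vehicle (OVX), and removal of both ovaries with 1 µg of estradiol benzoate per day under the skin in corn oil from day 4 (OVXE2), and every group, Sham included, carried the ligature. There were no mice without periodontitis among them. Gingiva, the soft tissue around the molars, and the dentoalveolar complex (DAC), the jaw bone with its teeth after the soft tissue was cleaned off, each gave 4 libraries per group. The labels call these biological replicates without naming animals, so it is not known whether any mouse gave more than 1 library, and p-values below measure the spread between these samples.

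Cxcl9 and Cxcl10, with Cxcl11, are the ligands of the chemokine receptor Cxcr3, which is carried by activated T helper type 1 cells, cytotoxic T cells and natural killer (NK) cells. Macrophages, dendritic cells, endothelium, fibroblasts and epithelium make these ligands when interferon gamma reaches them, in part through the transcription factor Irf1. Cxcl9 depends mainly on interferon gamma, whereas Cxcl10 also answers to type I interferon and, through NF-κB, to tumor necrosis factor and microbial products. In periodontitis they are known as signals that draw T cells into the inflamed gingiva.

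The genes lie side by side on the minus strand of chromosome 5 in build GRCm38, Cxcl9 at chr5:92321347-92328079 and Cxcl10 at chr5:92346638-92348889, with start sites 20810 bases apart. The 250 bases before each start site are shown because the members' changes had the same sign in each comparison while their known inputs differ. Sequences are from RefSeq (GRCm38.p6), minus strand, 5′ to 3′, at chr5:92328080-92328329 for Cxcl9 and chr5:92348890-92349139 for Cxcl10. Capitals mark matches to the core of the interferon-stimulated response element (ISRE, searched as GAAANNGAAA), the gamma-activated site (GAS, searched as TTCNNNGAA) or the NF-κB consensus, on either strand. The NF-κB consensus was searched as GGG(A or G)NN(C or T)(C or T)CC, so sites that differ from it by a base are not marked.
Cxcl9: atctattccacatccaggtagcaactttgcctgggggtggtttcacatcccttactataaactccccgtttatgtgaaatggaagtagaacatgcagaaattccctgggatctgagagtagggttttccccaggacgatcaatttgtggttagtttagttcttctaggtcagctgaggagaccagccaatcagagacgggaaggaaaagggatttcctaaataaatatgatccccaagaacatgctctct
Cxcl10: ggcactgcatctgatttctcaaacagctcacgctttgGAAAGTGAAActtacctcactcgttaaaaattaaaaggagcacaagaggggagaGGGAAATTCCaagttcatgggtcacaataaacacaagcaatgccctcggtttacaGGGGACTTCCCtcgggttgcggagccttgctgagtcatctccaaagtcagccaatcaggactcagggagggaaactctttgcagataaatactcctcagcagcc
The Cxcl10 window held the ISRE core 213 to 204 bases before the start site and NF-κB matches at 159 to 150, 104 to 95 and 103 to 94 bases, the last pair overlapping. The Cxcl9 window held no match to any of the motifs as spelled here. Of 32851 promoter windows of the same length, 2.98% held the ISRE core, 7.02% the GAS and 7.25% the NF-κB consensus.

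Gene counts per library totalled 18598422 to 26001342 for gingival libraries and 14771830 to 29248358 for DAC libraries. The tissues matched their labels: the 3 epithelial markers in the tables summed to 67738 to 99894 CPM (counts scaled to the size of the library) in gingival libraries and 875 to 5237 in DAC libraries, and 8 bone and tooth markers to 245 to 500 and 8611 to 17194. No marker of these lists was at 0 throughout a group. DAC libraries also carried nasal gland transcripts, highest in OVX replicate 1 at 138704 CPM for 10 markers against 1656 to 19842 across Sham, the rest of OVX and OVXE2. DAC Sham replicate 2 was the shallowest library and the highest in 7 brain neuron markers, at 345 CPM. The opposite-strand share, the percentage of gene reads assigned to the strand that was not used for counting, ran from 3.38 to 9.03%, and in each tissue 4 of 12 libraries were at or below 5%. Changes of the members without DAC Sham replicate 2 and OVX replicate 1, and among the libraries above 5%, follow beside their levels.

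In gingiva, Cxcl9 and Cxcl10 were highest in the 4 OVX libraries and lowest, on average, with estradiol, in comparisons in which edgeR called 0% of all genes. The Cxcl9 level was 62.0, 34.2, 28.6 and 43.5 CPM in OVX replicates 1 to 4, 21.3, 7.17, 5.96 and 22.5 CPM in Sham, and 7.5, 5.31, 1.99 and 4.75 CPM in OVXE2. Every OVX library stood above every library of the other groups, and OVXE2 overlapped with Sham through Sham replicates 2 and 3. The share of all genes whose libraries separated groups in this way was not counted, here or for the genes below. The group means were 42.1 ± 14.6 CPM (SD, n = 4) in OVX, 14.2 ± 8.88 in Sham and 4.89 ± 2.27 in OVXE2. Cxcl9 was thus 2.93-fold higher in OVX than in Sham, a log2 change of 1.55 ± 0.47 (SE), and 8.64-fold lower in OVXE2 than in OVX, a log2 change of -3.11 ± 0.51. Between OVXE2 and Sham the log2 change was -1.56 ± 0.50, with overlapping libraries.

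The Cxcl10 level in gingiva was 20.5, 16.7, 11.6 and 22.4 CPM in OVX, 8.44, 4.69, 3.01 and 10.8 CPM in Sham, and 6.01, 5.23, 1.94 and 4.87 CPM in OVXE2, in the order of the replicates. The OVX libraries again stood above all others, the nearest being OVX replicate 3 at 11.6 and Sham replicate 4 at 10.8 CPM. Means were 17.8 ± 4.77 CPM (SD, n = 4) in OVX, 6.74 ± 3.54 in Sham and 4.51 ± 1.78 in OVXE2. The log2 change of Cxcl10 was 1.39 ± 0.40 (SE) for OVX against Sham, -1.98 ± 0.41 for OVXE2 against OVX, and -0.59 ± 0.41 for OVXE2 against Sham, where the libraries overlapped. Among the libraries with an opposite-strand share above 5% (3 Sham, 3 OVX and 2 OVXE2), the log2 change for OVX against Sham was 1.03 for Cxcl10 and 1.29 for Cxcl9, and for OVXE2 against OVX -2.26 and -3.63. For OVXE2 against Sham it was -1.23 and -2.34 among these, further from 0 than in all 12 libraries. The 4 libraries at or below that share were too few to compare. The 3 comparisons share their groups, so their values are not independent of each other.

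Neither chemokine was among the genes called by edgeR at a Benjamini-Hochberg adjusted p under 0.05 in gingiva, where the fit without a replicate term called 0 of 12680 tested (0%) in each of the 3 comparisons. At an unadjusted p under 0.05 there were 1530 genes for OVX against Sham, 1766 for OVXE2 against OVX and 939 for OVXE2 against Sham. DESeq2 called 6 higher and 7 lower genes (0.103% of all), 48 higher and 43 lower (0.718%), and 6 higher and 2 lower (0.0631%) in these comparisons, and limma-voom called 0. Both chemokines were among the 43 that DESeq2 called lower in OVXE2 than in OVX. Since they were chosen with these counts known, nothing is read from that. In these bulk samples fewer cells that make a transcript and less of it per cell cannot be told apart.

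**Figure D1:**
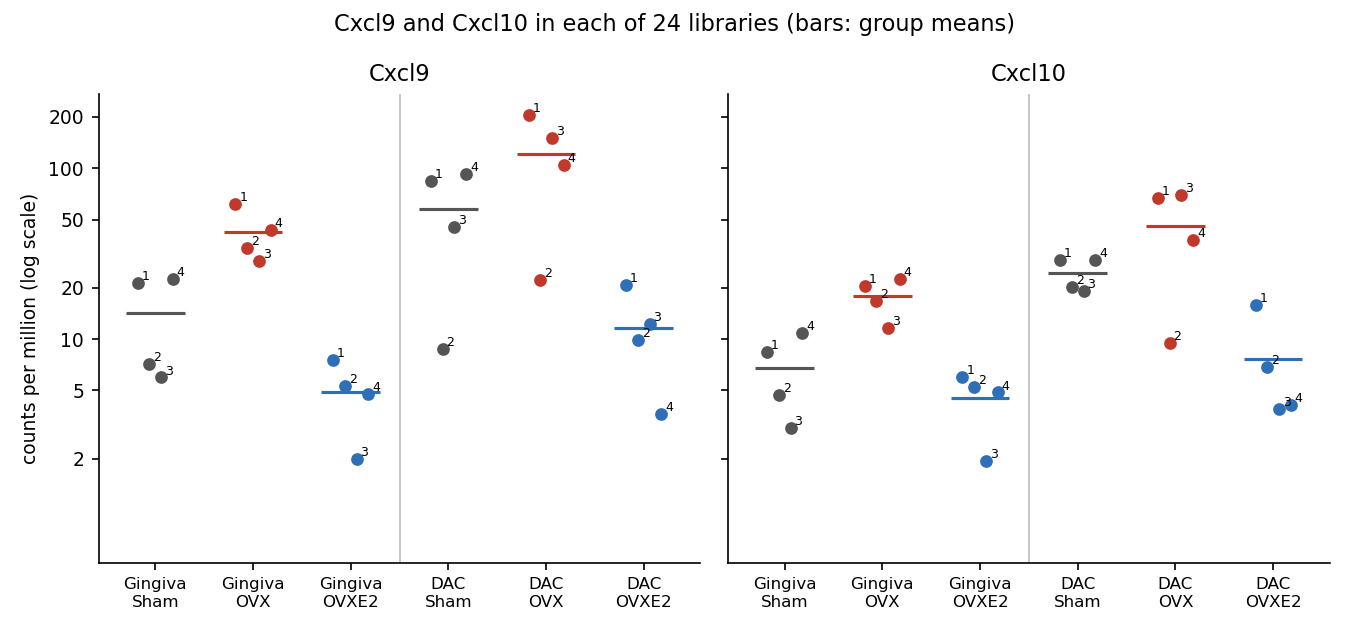
Levels of Cxcl9 (left) and Cxcl10 (right) in CPM on a log axis, with 1 point per library, its replicate number beside it, and a bar at the mean of each group of 4. In gingiva all 4 OVX points lie above the Sham and OVXE2 points; in the DAC, OVX replicate 2 lies far below the other 3 OVX libraries.

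In the DAC the order of the group means was the same, with wider spread. Of all genes there, edgeR called 0% for OVX against Sham, 2.13% for OVXE2 against OVX and 1.05% for OVXE2 against Sham. The Cxcl9 level was 205, 22.1, 151 and 104 CPM in OVX replicates 1 to 4, 84.6, 8.75, 45.3 and 92.6 CPM in Sham, and 20.6, 9.90, 12.2 and 3.65 CPM in OVXE2. OVX replicate 2 and Sham replicate 2 were the low libraries of their groups. The lowest OVX library was only just above the highest OVXE2 library, 22.1 against 20.6 CPM, so these groups did not overlap, whereas Sham overlapped with OVX and with OVXE2. Means were 120 ± 77.4 CPM (SD, n = 4) in OVX, 57.8 ± 38.7 in Sham and 11.6 ± 6.99 in OVXE2. The log2 change of Cxcl9 was 1.02 ± 0.74 (SE) for OVX against Sham, -3.39 ± 0.81 for OVXE2 against OVX (10.5-fold lower) and -2.37 ± 0.78 for OVXE2 against Sham. Without DAC Sham replicate 2 and OVX replicate 1 together, these values were 0.30, -3.02 and -2.72. For OVX against Sham, the log2 change of Cxcl9 was 0.67 without only Sham replicate 2 and 0.66 without only OVX replicate 1.

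The Cxcl10 level in the DAC was 66.6, 9.49, 69.3 and 38.0 CPM in OVX, 29.1, 20.2, 19 and 29.1 CPM in Sham, and 15.9, 6.89, 3.89 and 4.09 CPM in OVXE2. OVX replicate 2, at 9.49 CPM, was below OVXE2 replicate 1, at 15.9 CPM, so OVX and OVXE2 overlapped, while all 4 Sham libraries stood above all 4 OVXE2 libraries. Means were 45.9 ± 28.1 CPM (SD, n = 4) in OVX, 24.4 ± 5.51 in Sham and 7.69 ± 5.63 in OVXE2. The log2 change of Cxcl10 was 0.89 ± 0.56 (SE) for OVX against Sham, -2.60 ± 0.59 for OVXE2 against OVX (6.07-fold lower) and -1.71 ± 0.58 for OVXE2 against Sham. Leaving out DAC Sham replicate 2 and OVX replicate 1 gave 0.59, -2.38 and -1.79 for the same comparisons. Among the DAC libraries with an opposite-strand share above 5% (3 Sham, 2 OVX and 3 OVXE2), the log2 change was 1.23 for Cxcl10 and 1.45 for Cxcl9 in OVX against Sham, -2.63 and -3.19 in OVXE2 against OVX, and -1.40 and -1.74 in OVXE2 against Sham.

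These shares are 0, 290 and 143 of the 13617 genes tested in the DAC. For OVX against Sham 437 genes had an unadjusted p under 0.05, DESeq2 called 8 higher and 2 lower (0.0734%), and limma-voom called 0. Cxcl10 was among the genes edgeR called for OVXE2 against OVX and Cxcl9 was not, whereas DESeq2, with 4.39% of all genes called there and 2.5% for OVXE2 against Sham, called both for OVXE2 against OVX. Since they were chosen with these counts known, nothing is read from that, and the Cxcl10 call was absent in 9 of 12 fits that each left out 1 library.

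Across the 6 groups Cxcl9 spanned a wider range than Cxcl10. Cxcl9 means ran, from low to high, through gingiva OVXE2 (4.89 CPM), DAC OVXE2 (11.6), gingiva Sham (14.2), gingiva OVX (42.1), DAC Sham (57.8) and DAC OVX (120). Only gingiva Sham and gingiva OVX were neighbours whose libraries did not overlap. Cxcl10 means ran through gingiva OVXE2 (4.51 CPM), gingiva Sham (6.74), DAC OVXE2 (7.69), gingiva OVX (17.8), DAC Sham (24.4) and DAC OVX (45.9), and every pair of neighbours overlapped. In each group the mean was higher in the DAC than in gingiva, by 4.06-fold in Sham, 2.86-fold in OVX and 2.37-fold in OVXE2 for Cxcl9 and by 3.61-fold, 2.57-fold and 1.70-fold for Cxcl10. The libraries of the tissues did not overlap for Cxcl10 in Sham and overlapped in the other 5 cases.

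The balance between the chemokines is given by their difference within a library. The log2 CPM of Cxcl10 minus that of Cxcl9 was -1.22 ± 0.29 (SD, n = 4) in gingiva OVX, -0.99 ± 0.30 in gingiva Sham and -0.08 ± 0.16 in gingiva OVXE2. All 4 gingival OVXE2 libraries, at -0.31 to 0.04, stood above all 8 Sham and OVX libraries, at -1.59 to -0.60. Per kilobase of exon (3016 bases for Cxcl9, 2252 for Cxcl10), the Cxcl9 level was higher than the Cxcl10 level in 4 of 4 gingival Sham and 4 of 4 OVX libraries and in 0 of 4 OVXE2 libraries. In the DAC the log2 difference was -1.35 ± 0.23 in OVX, -0.59 ± 0.76 in OVXE2 and -0.81 ± 1.35 in Sham. Sham replicate 2 was the only DAC Sham library with more Cxcl10 than Cxcl9, at 1.20, while the other 3 Sham libraries ran from -1.67 to -1.25. Per kilobase, Cxcl9 was above Cxcl10 in 4 of 4 OVX, 3 of 4 Sham and 2 of 4 OVXE2 libraries of the DAC.

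**Figure D2:**
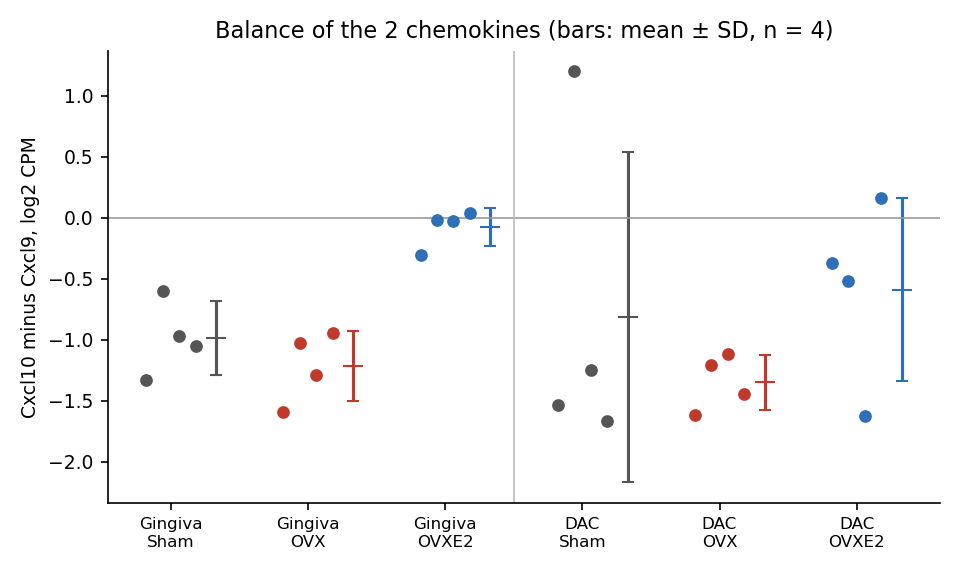
Log2 CPM of Cxcl10 minus log2 CPM of Cxcl9, 1 point per library, with the mean and SD of each group of 4 at its right; values below 0 mean more Cxcl9. Gingiva OVXE2 lies near 0 (-0.08 ± 0.16) and gingiva OVX at -1.22 ± 0.29; in DAC Sham, replicate 2 lies apart at 1.20.

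**Figure D3:**
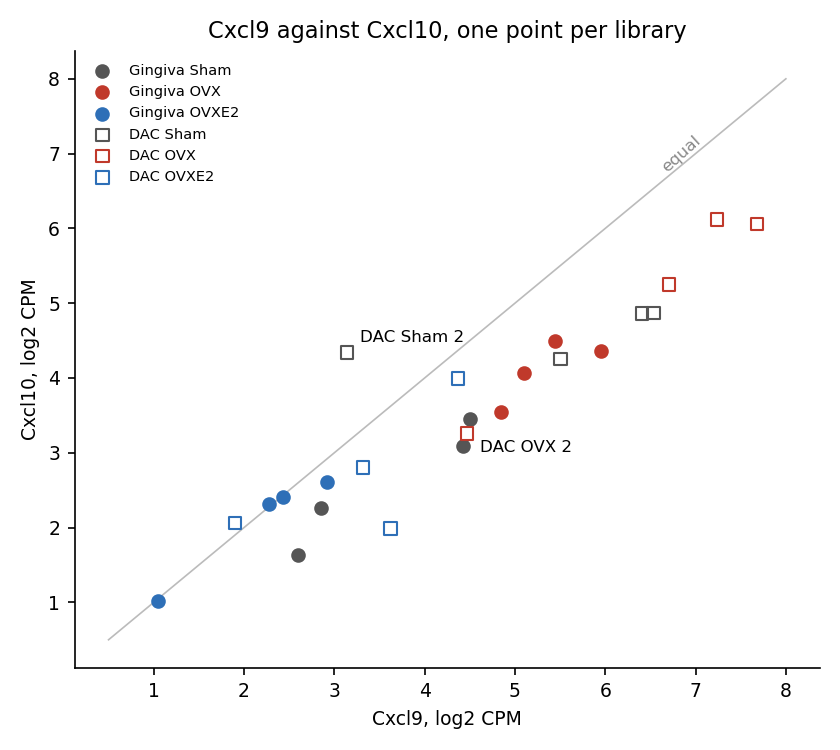
Log2 CPM of Cxcl10 against log2 CPM of Cxcl9 in 24 libraries, gingiva as filled circles and DAC as open squares, colored by group; the grey line marks equal levels. Most points lie below the line, and DAC Sham replicate 2 lies clearly above it.

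The related genes were read in the same fits: 158 symbols in 9 lists, 115 of them in the tables, of which 97 were tested in gingiva and 104 in the DAC. In the DAC, 16 fell and 0 rose in OVXE2 against OVX by edgeR, 15.4% of those tested against 2.13% of all genes (198 of all genes, 1.45%, were called lower). Against Sham, 7 fell and 0 rose in OVXE2, 6.73% against 1.05% of all genes (0.661% lower). For OVX against Sham edgeR called 0 related genes in the DAC, with 12 at an unadjusted p under 0.05 (437 of all 13617 genes). In gingiva it called 0 in all 3 comparisons, with 27, 37 and 12 at an unadjusted p under 0.05 (1530, 1766 and 939 of all 12680 genes). DESeq2 called 1, 13 and 1 related genes in these gingival comparisons (0.103, 0.718 and 0.0631% of all genes) and 0 in DAC OVX against Sham (0.0734%), and limma-voom 0 in each. The lists were drawn up with results of these data known, and the members are not counted in them.

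Of the other parts of the Cxcr3 axis, Cxcl11 and Cxcr3 had low levels. Cxcl11, the third ligand, is annotated in GENCODE M21 as a polymorphic pseudogene, a class of genes that are intact in some strains only. The Cxcl11 level was 2.02, 0.397, 2.20 and 1.34 CPM in DAC OVX replicates 1 to 4 and 0.658, 0.290, 0.0413 and 0.103 CPM in DAC OVXE2, from 1 to 58 counts. OVX replicate 2 was again the low library, and the groups overlapped. The log2 change of Cxcl11 in the DAC was -2.44 ± 0.73 (SE) for OVXE2 against OVX (edgeR adjusted p = 0.152) and 0.94 ± 0.68 for OVX against Sham (adjusted p = 0.874). In gingiva Cxcl11 had 2 to 18 counts per library and was left out of the fit by the filter on low counts.

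Cxcr3, the receptor, stood at 1.20 ± 0.179 CPM (SD, n = 4) in DAC OVXE2, 2.48 ± 0.525 in OVX and 2.08 ± 0.599 in Sham. Every OVXE2 library of the DAC, at 1.02 to 1.44 CPM, lay below every OVX library, at 1.75 to 2.88 CPM. The log2 change of -1.06 ± 0.25 (SE) missed the threshold (edgeR adjusted p = 0.0543). In gingiva the Cxcr3 log2 change was -0.54 ± 0.33 (adjusted p = 0.48) for OVXE2 against OVX and 0.66 ± 0.33 (adjusted p = 0.43) for OVX against Sham. The platelet chemokine Pf4 and the scavenging receptors Ackr1 and Ackr3 did not pass in any of the 6 comparisons, with log2 changes in the DAC for OVXE2 against OVX of -0.14, -0.02 and -0.25.

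Dpp4, the membrane peptidase that trims the amino terminus of Cxcl9 and Cxcl10 and so weakens them as attractants, was the member of the axis that passed. In the DAC it fell by 1.82 ± 0.20 (SE) on the log2 scale in OVXE2 against OVX (edgeR adjusted p = 0.000666), from 13 ± 3.62 to 3.68 ± 0.827 CPM (SD, n = 4), lower in 4 of 4 libraries. Against Sham, at 7.94 ± 0.670 CPM, it fell by 1.15 ± 0.20 (adjusted p = 0.0203), a call lost without DAC Sham replicates 1, 2 or 3 or OVXE2 replicate 1 (adjusted p up to 0.0753). In gingiva its level was 20 ± 2.84 CPM in OVX and 25.0 ± 3.56 in OVXE2, and its log2 change for OVXE2 against OVX was 0.32 ± 0.18 (adjusted p = 0.439).

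Among the inducers, Ifng, which encodes interferon gamma, was scarce in every group. Its counts were 32, 10, 22 and 20 in DAC OVX replicates 1 to 4, 16, 0, 5 and 4 in Sham, and 5, 3, 2 and 0 in OVXE2. All 4 OVX libraries had more than any OVXE2 library, with means of 0.779 ± 0.358 CPM (SD, n = 4) against 0.0912 ± 0.0717. The log2 change of Ifng was -3.04 ± 0.84 (SE, edgeR adjusted p = 0.116) for OVXE2 against OVX and 1.5 ± 0.76 (adjusted p = 0.874) for OVX against Sham. In gingiva Ifng had 1 to 7 counts per library and was not tested. Il12a, which encodes a subunit of the interferon gamma inducing cytokine IL-12, fell by 0.94 ± 0.17 in DAC OVXE2 against OVX (adjusted p = 0.0149). That call was lost without OVX replicate 3 or OVXE2 replicates 1 or 4 (adjusted p up to 0.0664). Of the 7 tested genes in this list in the DAC, Il12a was the only one called.

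Irf1, a transcription factor that interferon gamma induces, had smaller log2 changes than the chemokines. In gingiva its log2 change was 0.46 ± 0.13 (SE, edgeR adjusted p = 0.376) for OVX against Sham and -0.54 ± 0.13 (adjusted p = 0.232) for OVXE2 against OVX. Irf1 had 41.9 to 46.3 CPM in the 4 gingival OVX libraries, above all Sham (25.1 to 39.0) and OVXE2 (25.2 to 34.2) libraries. In the DAC the OVXE2 against OVX log2 change of Irf1 was -0.72 ± 0.19 (adjusted p = 0.103). Irf8, a partner of Irf1 that is typical of monocytes and dendritic cells, fell by 0.81 ± 0.14 there (adjusted p = 0.0108), from 52.7 ± 5.36 to 30.3 ± 1.75 CPM (SD, n = 4). It was the only one called of 9 receptor and signalling genes tested.

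Genes that interferon gamma induces in many cell types mostly had the sign of the chemokines in both tissues. Of 16 interferon gamma targets tested (33 listed, 18 in the tables), 16 were higher in gingiva OVX than in Sham, with a median log2 change of 0.53, while 6570 of all 12680 genes were higher, with a median of 0.01. For gingiva OVXE2 against OVX 14 of 16 were lower, with a median of -0.72. In the DAC 14 of 16 were higher in OVX than in Sham (median 0.63), and 13 of 16 lower in OVXE2 than in OVX (median -0.68, against 0.02 over all genes, of which 44.9% were lower). The lean was weaker for OVXE2 against Sham: 12 of 16 were lower in gingiva (median -0.18) and 10 of 16 in the DAC (median -0.15). Of all genes 51.8% and 50.6% were lower there. Of the 17 type I interferon targets tested, 17 were lower in gingiva OVXE2 than in OVX, with a median log2 change of -0.38, and 11 in the DAC, with a median of -0.04. In OVX against Sham 11 of these 17 were lower in gingiva (median -0.28) and 10 higher in the DAC (median 0.11). In OVXE2 against Sham 17 were lower in gingiva (median -0.54) and 12 higher in the DAC (median 0.09). No type I target was called in any comparison. The difference between the lists was not tested.

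The interferon gamma targets that fell in DAC OVXE2 against OVX were the guanylate-binding protein genes Gbp5 and Gbp2 and the immunity-related GTPase gene Igtp, whose products act in cells against intracellular microbes. Gbp5 fell by 1.80 ± 0.40 (SE, edgeR adjusted p = 0.0417), Gbp2 by 1.75 ± 0.40 (adjusted p = 0.0469) and Igtp by 1.42 ± 0.32 (adjusted p = 0.0469) on the log2 scale. These calls were lost in 10 of 12 fits that left out 1 library, all but those without DAC Sham replicate 2 or OVX replicate 2, with adjusted p up to 0.151. Of the 16 targets tested, 13 were lower and 3 higher in DAC OVXE2 than in OVX, with 0 called higher. Gbp8 stood at 7.1 to 7.8 CPM in DAC OVXE2, 1.51 to 4.59 in OVX and 0.966 to 2.74 in Sham. Mean Gbp9 levels were 26.1, 21.8 and 16 CPM in these groups. The Gbp2 level was 209, 47.9, 158 and 121 CPM in DAC OVX replicates 1 to 4 and 49.8, 35.4, 37.8 and 37.8 CPM in OVXE2. As for Cxcl10, OVX replicate 2 was the low library and was below OVXE2 replicate 1. In gingiva the OVXE2 against OVX log2 change was -1.67 ± 0.27 for Gbp2 (adjusted p = 0.136), -1.45 ± 0.26 for Igtp (adjusted p = 0.149) and -1.15 ± 0.34 for Gbp5 (adjusted p = 0.298). The gingival Gbp2 level, 47.2 to 87.6 CPM in OVX, 19.6 to 39.3 in Sham and 15.9 to 23.3 in OVXE2, separated OVX from the other groups as Cxcl9 and Cxcl10 did. Isg15, a type I interferon target, had a DAC log2 change of 0.08 ± 0.20 (adjusted p = 0.986), and in gingiva -1.27 ± 0.70 (adjusted p = 0.427), with 1 Sham library at 49.1 CPM and the lowest at 5.20.

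**Figure D4:**
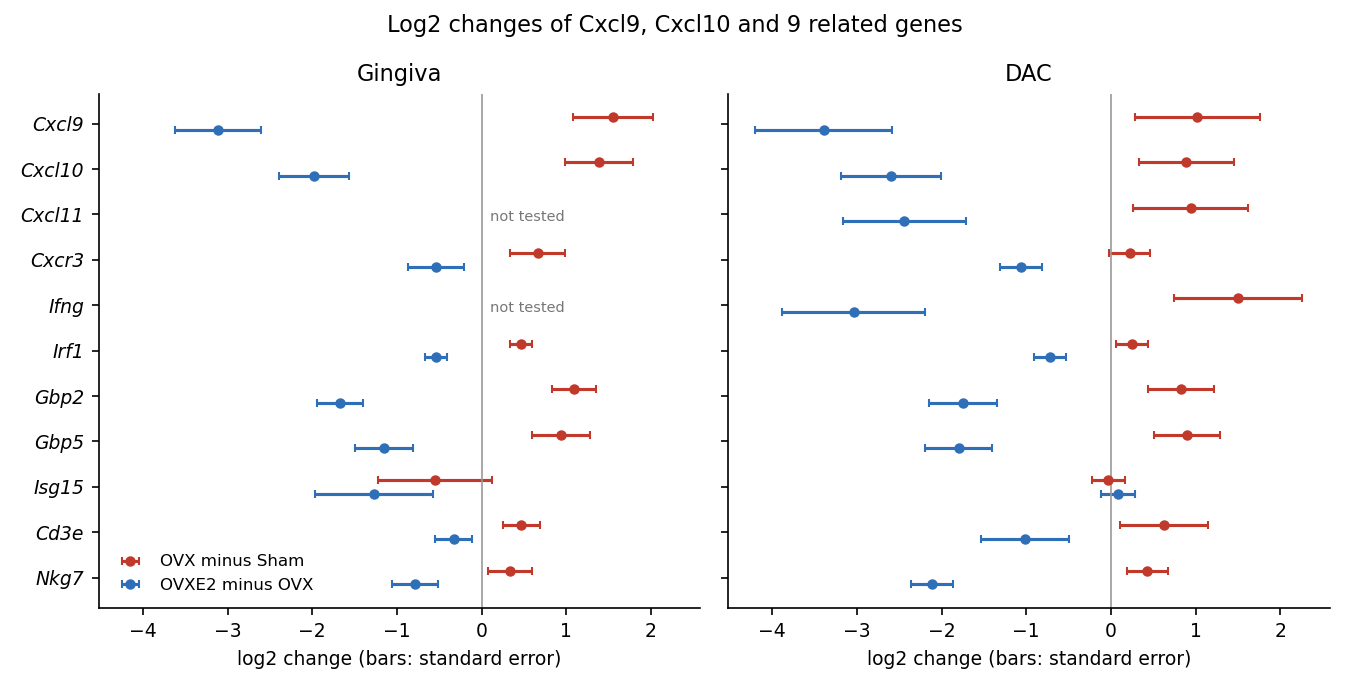
Log2 changes with standard errors for Cxcl9, Cxcl10 and 9 related genes, in gingiva (left) and the DAC (right), for OVX minus Sham (red) and OVXE2 minus OVX (blue). Cxcl9 is at -3.11 and -3.39 for OVXE2 minus OVX, Irf1 at -0.54 and -0.72, and Isg15 in the DAC at 0.08; Cxcl11 and Ifng were not tested in gingiva.

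Genes of the cells that answer the chemokines were also lower in the DAC with estradiol. Of 20 T cell and NK cell genes tested in OVXE2 against OVX, 19 were lower, with a median log2 change of -1.57, and 6 fell: Nkg7, Cd2, Klrk1, Ccl5, Lck and Klrd1. Nkg7, a granule protein of cytotoxic lymphocytes, fell by 2.11 ± 0.25 (SE, edgeR adjusted p = 0.00133), from 16.7 ± 1.42 to 3.88 ± 1.24 CPM (SD, n = 4). It also fell against Sham, by 1.68 ± 0.25 (adjusted p = 0.00901), and kept these calls without any 1 of the 12 libraries. Cd2, an adhesion molecule of T and NK cells, fell by 2.07 ± 0.29 (adjusted p = 0.00306), and Ccl5, a chemokine made by T and NK cells, by 2.03 ± 0.39 (adjusted p = 0.0187). Klrk1, an activating receptor of NK cells, fell by 1.91 ± 0.33 (adjusted p = 0.0108). The calls of Klrd1, Ccl5 and Lck were lost in 9, 6 and 6 of 12 fits without 1 library. Cd3e, a chain of the T cell receptor complex, had a log2 change of -1.02 ± 0.52 (adjusted p = 0.602).

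The summed level of the 20 listed T and NK cell genes was 64.3 to 110 CPM in DAC OVX and 43.6 to 45.9 in DAC OVXE2, and 28.4 to 45.5 in gingiva OVX and 21.9 to 27.9 in gingiva OVXE2, without overlap in either tissue, and none of the 20 was at 0 throughout a group. In gingiva all 16 tested genes were lower in OVXE2 than in OVX (median log2 change -0.70) and 0 were called by edgeR, with 11 at an unadjusted p under 0.05. Of all 12680 genes there, 51.1% were lower and 1766 had an unadjusted p under 0.05. Summed DAC levels of 8 B cell genes, 218 to 310 CPM in OVX and 81.8 to 130 in OVXE2, and of 7 endothelial genes, 656 to 770 and 880 to 1025, separated the same groups. Of 11 neutrophil genes 10 were lower in DAC OVXE2 than in OVX, with a median log2 change of -0.69, and 5 fell: the granule protein genes Mpo, Elane, Camp, Ngp and Ltf, with log2 changes from -1.89 to -1.20 and edgeR adjusted p from 0.00306 to 0.0357. The calls of Mpo and Elane were kept without any 1 library, and those of Camp, Ngp and Ltf were lost in 6, 5 and 9 of 12 such fits. The summed neutrophil level overlapped, at 7949 to 11295 CPM in OVX and 5529 to 8665 in OVXE2. All 10 nasal gland markers were lower there too (median -1.10), with 0 called by edgeR and 2 at an unadjusted p under 0.05. Gingiva OVXE2 had more of the 6 skeletal muscle markers, 1599 to 5202 CPM against 640 to 2316 in OVX. The part of these cell types in the levels of Cxcl9 and Cxcl10 was not tested.

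Among possible makers of the chemokines, the few myeloid genes called by edgeR in the DAC fell and the endothelial genes it called rose. Of 11 monocyte and macrophage genes 1 fell in DAC OVXE2 against OVX: Ccr2, the receptor that brings monocytes out of the marrow, by 1.33 ± 0.19 (SE, edgeR adjusted p = 0.00375). Over all 11, called or not, 7 had log2 changes below 0 and 4 above, with a median of -0.04. Their summed level overlapped, at 2081 to 3545 CPM in OVX and 1593 to 2518 in OVXE2. Of 10 dendritic cell genes 3 fell: Ccr7, the receptor of migrating dendritic cells, with a log2 change of -1.89 ± 0.29 (adjusted p = 0.00576), the lectin gene Cd209a with -1.82 ± 0.30 (adjusted p = 0.00844) and the growth factor receptor gene Flt3 with -1.05 ± 0.18 (adjusted p = 0.0104). Other dendritic cell genes did not pass and had log2 changes above 0, at 0.24 ± 0.09 for Fscn1 (adjusted p = 0.323), 0.23 ± 0.10 for Zbtb46 (adjusted p = 0.485) and 0.21 ± 0.18 for Siglech (adjusted p = 0.906), and the summed level of the 10 genes overlapped, at 240 to 274 CPM in OVX and 261 to 294 in OVXE2. Ccr2, Ccr7, Cd209a and Flt3 kept their calls without any 1 library. They also fell against Sham, where the calls of Ccr2, Ccr7, Flt3 and Cd209a were lost in 7, 6, 4 and 2 of 12 such fits. Of 7 endothelial genes 4 rose in DAC OVXE2 against OVX: Cdh5, the cadherin of endothelial junctions, by 0.57 ± 0.08 (adjusted p = 0.00306), and the receptor genes Tie1 by 0.52 ± 0.08 (adjusted p = 0.00708), Kdr by 0.54 ± 0.11 (adjusted p = 0.0285) and Tek by 0.38 ± 0.09 (adjusted p = 0.048). The calls of Kdr and Tek were lost in 5 and 11 of 12 fits without 1 library, and those of Cdh5 and Tie1 in none. None of 8 other CXC chemokines tested was called in either tissue: the gingival log2 change for OVXE2 against OVX was -0.44 ± 0.11 for Cxcl16, whose receptor is on T and NK cells (adjusted p = 0.258), and in the DAC -1.18 ± 0.32 for the B cell attractant Cxcl13 (adjusted p = 0.11).

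**Figure D5:**
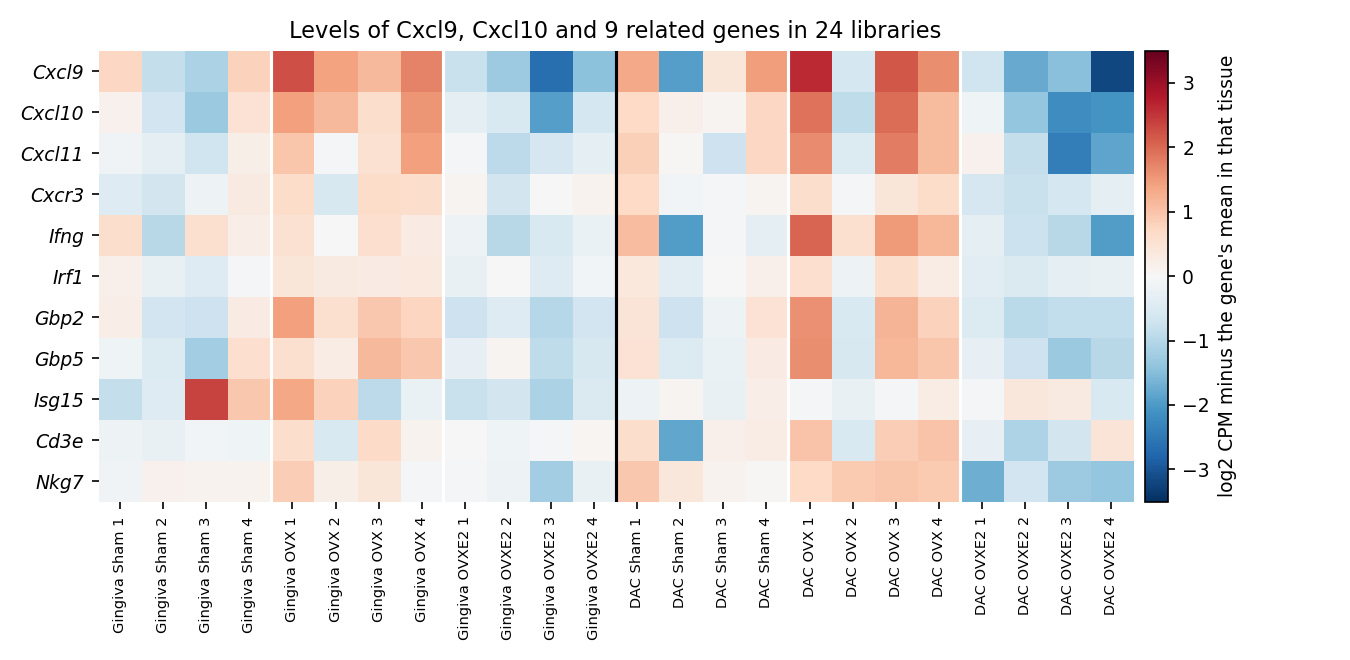
Log2 CPM of Cxcl9, Cxcl10 and 9 related genes in 24 libraries, each gene minus its mean in that tissue (red above, blue below). All genes shown but Nkg7 are lower in DAC OVX replicate 2 than in the other 3 DAC OVX libraries. These include Cd3e (1.31 CPM), Cxcr3, Ifng, Irf1 and Isg15 as well as Cxcl9, Cxcl10, Cxcl11, Gbp2 and Gbp5.

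Over the 12 gingival libraries Cxcl9 and Cxcl10 were each other's most similar gene, of 9493 genes with a mean of at least 1 log2 CPM, with a Pearson r of 0.964 of their log2 CPM. Next to Cxcl9 came Gbp2 (r = 0.955), Aven (0.941), Igtp (0.928) and Tmem129 (0.901), and next to Cxcl10 came Irf1 (0.933), Aven (0.922), Tmem129 (0.921) and Gbp2 (0.916). With group means removed, Cxcl9 and Cxcl10 kept an r of 0.951 in gingiva, whereas r of Gbp2 was 0.837 with Cxcl9 and 0.708 with Cxcl10, and Ikzf4, at 0.968, ranked above Cxcl10 for Cxcl9. In the DAC, over 12 libraries and 10059 genes, r between Cxcl9 and Cxcl10 was 0.891, and other genes ranked higher for each. With group means removed, r in the DAC was 0.749, at rank 49 for Cxcl9 and 84 for Cxcl10. The genes nearest to Cxcl9 there were Igtp (0.958), Ifi47 (0.947), Slamf8 (0.946), Gbp2 (0.945) and Zbp1 (0.944). Those nearest to Cxcl10 were Gbp5 (0.948), Gbp3 (0.929), Gbp2 (0.908), Igtp (0.905) and Tgtp1 (0.900). Cxcl11, below the level needed for the ranking, had an r of 0.965 with Cxcl10 and 0.842 with Cxcl9 in the DAC, and Ifng had 0.750 and 0.901. These correlations describe 12 libraries that share the group differences and, for Ifng and Cxcl11, rest on few counts.

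Of the other genes with a start site within 100 kb of Cxcl9 or Cxcl10, 1 was called for OVXE2 against OVX. Art3 lies on the plus strand at chr5:92331827-92414628 and its span includes Cxcl10. Annotated exons of Art3 and Cxcl10 share 133 bases, on which reads counted without strand could not be told apart. Its log2 change for OVXE2 against OVX was 0.51 ± 0.23 (SE) in gingiva (edgeR adjusted p = 0.355) and -0.13 ± 0.26 in the DAC (adjusted p = 0.983). Sdad1 and Nup54 had log2 changes of -0.06 ± 0.13 and 0.00 ± 0.09 in the DAC. Naaa, an acid amidase gene 49909 bases from the Cxcl9 start, fell by 0.42 ± 0.09 in the DAC (adjusted p = 0.0282), and Ppef2 had a log2 change of -0.40 ± 0.43 (adjusted p = 0.943).

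Differences between the tissues in the chemokines' changes were all under 2 standard errors. The DAC change minus the gingival change for OVXE2 against OVX was -0.27 ± 0.95 (SE) for Cxcl9 and -0.59 ± 0.74 for Cxcl10 on the log2 scale. For OVX against Sham it was -0.50 ± 0.92 and -0.48 ± 0.72, and for OVXE2 against Sham -0.77 ± 0.96 and -1.07 ± 0.75. The sign was not stable: for OVXE2 against OVX the Cxcl9 value ran from -0.71 to 0.11 when each library was left out, positive without DAC OVX replicate 1, DAC OVXE2 replicate 4 or gingiva OVXE2 replicate 1. With opposite-strand share above 5%, the Cxcl9 difference was 0.15, 0.48 and 0.63 for OVX against Sham, OVXE2 against OVX and OVXE2 against Sham, and that of Cxcl10 was 0.20, -0.32 and -0.12. Of 14209 genes, edgeR called 0 (0%), 27 (0.19%, with 0.12% lower) and 9 (0.0633%) for the tissue difference of OVX against Sham, OVXE2 against OVX and OVXE2 against Sham, and neither chemokine was among them. At an unadjusted p under 0.05 there were 1212, 1252 and 1110 of the 14209 genes, and 5, 15 and 22 of the 105 related genes tested. Of these 105, 0, 1 and 0 were called, and DESeq2 and limma-voom gave the same counts of calls. The 1 was Dpp4, for OVXE2 against OVX, at -2.14 ± 0.28 (adjusted p = 0.000819): lower with estradiol in the DAC and not in gingiva. Among the 16 libraries with opposite-strand share above 5%, the Dpp4 difference was -1.92 ± 0.31 and did not pass (adjusted p = 0.0889).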

How the data were processed

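Poly(A) RNA was sequenced from gingiva and DAC of Sham, OVX and OVXE2 mice, 4 libraries per group and tissue, 24 in all. The deposited values are raw gene counts, 1 table per library, and the count column of the strand that held most reads in every library was used. The submitters' processing notes name fastp, STAR and DESeq2 and the build GRCm38 (mm10), with no role or order. The annotation behind the counts and the tool versions were not given in the sources used here. GENCODE M21 named 38186 of the 38321 gene IDs.

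Low genes were removed by filterByExpr and TMM factors set the library scale. Quasi-likelihood fits used edgeR 4.0.16 in R 4.3.3 (robust glmQLFit, then glmQLFTest), 12 libraries of a tissue in 1 fit and all 24 for tissue differences, with p adjusted by Benjamini-Hochberg over 12680 (gingiva), 13617 (DAC) or 14209 genes. A gene was called at an adjusted p under 0.05, and a change's standard error is its log2 value over the square root of its F statistic. Levels are CPM scaled over all 24 libraries, and log2 CPM uses a prior count of 2. Total counts of 14771830 to 29248358 give members 45 to 5265 counts per library, so counting error is small beside the spread between libraries. Alternatives were DESeq2 1.42.0, limma-voom (limma 3.58.1), other scalings, no filter, counts of either strand, fewer libraries and a replicate block; 3 that concern strand share or libraries that stand apart were chosen after seeing the data. Tests were checked on simulated counts.

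The members and the gene lists were chosen with earlier results of these data known. Genes were named by rule: the members, a panel of 10 related genes (1 of them is not reported here), up to 4 called genes of a related list by smallest p or up to 2 as values where none was called, the 5 genes most like each member by Pearson r, and genes within 100 kb; a part of these is printed, and Lck, Klrd1, Pf4, Ackr1, Ackr3 and the neutrophil, endothelial and uncalled dendritic cell genes were named after their values were seen. Gbp8 and Gbp9 were also named after their values were seen. Listed genes that are not in the tables are not analysed here. Promoter windows are RefSeq's.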

Additional observations from a re-analysis of the deposited data

Results flagged for a closer look

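The response of Dpp4 to estradiol after ovariectomy differed between the tissues in a test of the difference itself. Its log2 change for OVXE2 against OVX was -1.82 ± 0.20 (SE) in the DAC and 0.32 ± 0.18 in gingiva, and the difference between these changes was -2.14 in the 24-library fit (edgeR adjusted p = 0.000819). It was lower in 4 of 4 DAC libraries with estradiol than in any DAC OVX library. The difference ran from -2.23 to -1.92 when each of 24 libraries was left out, with adjusted p up to 0.00353. Among the libraries with an opposite-strand share above 5% the Dpp4 difference was -1.92 and the call was lost (adjusted p = 0.0889). No sample of Cxcl9 or Cxcl10 stood apart from the other 3 of its group by Dixon's criterion for 4 samples.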

How the results depend on the processing

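The log2 changes of Cxcl9 and Cxcl10 kept their direction in each within-tissue comparison under all 22 alternatives in gingiva and 23 in the DAC. In these, OVX against Sham ran from 1.29 to 1.86 (Cxcl9) and 1.03 to 1.71 (Cxcl10) in gingiva and from 0.30 to 1.45 and 0.54 to 1.23 in the DAC. OVXE2 against Sham ran from -2.34 to -1.25 and -1.23 to -0.27, and from -2.78 to -1.74 and -2.33 to -1.40. OVXE2 against OVX ran from -3.63 to -2.85 (Cxcl9) and -2.26 to -1.74 (Cxcl10) in gingiva and from -3.80 to -3.02 and -3.21 to -2.31 in the DAC. The number of members called was not stable: in gingiva OVXE2 against OVX, 0 of Cxcl9 and Cxcl10 became 2 with DESeq2 (0.718% of all genes called) and 2 with a replicate block (0.0158%), and 0 to 1 without each library. In DAC OVXE2 against OVX, 1 became 2 with DESeq2 (4.39%) and 0 with limma-voom, library size only, no low-count filter, a replicate block, only the groups compared, opposite-strand share above 5% or as a term, or both DAC Sham 2 and OVX 1 left out (0.279 to 2.11%), and 0 to 2 without each library. Nothing is read from these calls, since the members were chosen with these counts known. With opposite-strand share above 5%, the tissue difference for OVXE2 against Sham was 0.63 for Cxcl9 and -0.12 for Cxcl10. The cause was not tested.

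Of the related genes, DESeq2 called 1, 13 and 1 in gingiva (OVX against Sham, OVXE2 against OVX, OVXE2 against Sham), with 0.103, 0.718 and 0.0631% of all genes called. There edgeR called 0, or 0 to 1 for OVXE2 against OVX without each library (1 without OVX replicate 3, with 0.468% of all genes called). In DAC OVXE2 against OVX the 16 (2.13% of all genes called) became 34 with DESeq2 (4.39%), 10 with only the groups compared (1.43%) and 2 with opposite-strand share above 5% (0.279%). Without each library they became 9 to 29 (1.27 to 2.11% of all genes). There were 29 without OVX replicate 2 (1.82%), and 9 or 10 without OVX replicates 3 or 4 or OVXE2 replicates 1, 2 or 4. In DAC OVXE2 against Sham the 7 (1.05% of all genes called) became 17 (2.5%), 3 (0.487%), 0 (0.115%) and 1 to 9 (0.441 to 1.18%) in the same order. They became 1 to 4 without Sham replicates 1, 3 or 4 or OVXE2 replicates 1, 2 or 4. The related gene called for the tissue difference (Dpp4) was lost, to 0, with opposite-strand share above 5%. The cause of these changes in the number of calls was not tested.

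Within a tissue, equal replicate numbers did not pair the libraries, and pairing across tissues was not examined: correlations of same-numbered libraries ran from -0.412 to 0.209 (gingiva) and -0.358 to 0.228 (DAC), and 2 and 3 of 12 libraries correlated best with their own number. With the replicate block, 18 and 8 related genes were called in DAC OVXE2 against OVX and Sham, with 1.84 and 0.742% of all genes called. No library was a copy of another in its group (chi-square per degree of freedom 16.7 to 359 over 36 pairs). Of the 5 genes most like a member, group-centred values shared 1 for Cxcl9 and 1 for Cxcl10 in gingiva and 3 and 2 in the DAC. Cxcl11 and Ifng in gingiva, at 1 to 18 counts, were too shallow to test.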

Other observations

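The replicate that was highest within its group often bore the same number in both tissues. For Cxcl9 this held in 3 of 3 groups (replicate 4 in Sham, replicate 1 in OVX and replicate 1 in OVXE2). For Cxcl10 it held in 2 of 3 groups, with replicate 4 in gingiva and replicate 3 in the DAC in OVX. In DAC Sham, Cxcl10 replicates 1 and 4 were both at 29.1 CPM. The lowest Cxcl9 replicate differed between gingiva and the DAC: 3 and 2 in Sham, 3 and 2 in OVX, and 3 and 4 in OVXE2. For Cxcl10 the lowest was replicate 3 in both tissues in Sham and OVXE2, and 3 and 2 in OVX. The 2 chemokines vary together, and how often such numbers match over all genes was not counted. The labels do not say that equal numbers mark the same mouse.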
